A study of Arabidopsis thaliana with 12 samples.

Results

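PORB, CHLM, CHLI2, HEMA2 and LIL3:2 are 5 nuclear genes of chlorophyll synthesis in Arabidopsis thaliana, and they were chosen by name, as the genes annotated alone to their probe sets on an Affymetrix ATH1 array. Each had 1 probe set, so they account for 5 of 22746 probe sets without controls, and all 5 lay above the filter on low signals that left 13647 probe sets to be tested. Total RNA came from aerial rosettes of wild-type seedlings of the Columbia ecotype, 15 days old, raised in cycles of 12 h white light and 12 h darkness and then moved to constant darkness. A night pulse group received 1 h of white light in the middle of the night and a day pulse group 1 h of white light in the middle of the subjective day. A night control and a day control group stayed dark, so all 4 groups had been in constant darkness, each with 3 arrays. In the labels CT 6 stands for night and CT 18 for day, which runs against the usual count of circadian time from subjective dawn, and the groups here follow the sample titles. The sources used here give neither how long the darkness lasted nor how many plants a sample pooled.

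Chlorophyll is built in plastids from glutamate by way of 5-aminolevulinic acid and protoporphyrin IX, where the pathway splits into a magnesium branch that leads to chlorophyll and an iron branch that leads to heme. In flowering plants the reduction of protochlorophyllide needs light, so seedlings in darkness halt at that step, and intermediates made beyond need are toxic once light returns. HEMA2 encodes an isoform of glutamyl-tRNA reductase, the enzyme that commits glutamate to the pathway, while HEMA1 is the main isoform of green tissue. CHLI2 encodes the minor isoform of the I subunit of magnesium chelatase, which places magnesium in protoporphyrin IX, and CHLM the methyltransferase that acts next. PORB encodes a light-dependent protochlorophyllide oxidoreductase. LIL3:2 and its close relative LIL3:1 encode light-harvesting-like membrane proteins that hold geranylgeranyl reductase, the enzyme that makes the phytyl tail of chlorophyll, at the thylakoid.

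The arrays differed in overall brightness, with median signals from 23.5 to 63.5, and were brought to a common distribution, so that signals below are normalized signals on a linear scale with no unit. RNA quality can be read from GAPDH control probes, whose 3' signal exceeds the 5' signal more in degraded RNA. That ratio stood at 9.29 for the first day pulse array and 8.75 for the second day control array, and 10 arrays had 2.16 to 5.16. Of 8 leaf markers 3 had a named probe set, and Rubisco activase (RCA), SBPASE and PRK were bright on every array. Of 6 root markers 3 had one, and both root-hair expansins, EXPA7 and EXPA18, lay at 0.765 to 16.2, while the beta-glucosidase PYK10 had signals from 390 to 1922. Log2 differences are limma estimates ± SE with n = 3 arrays a group, with two-sided p-values adjusted by Benjamini-Hochberg over all tested probe sets and a call at an adjusted p under 0.05.

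The first question was what 1 h of light did to these genes. PORB and CHLM fell after the pulse at both times, and none of the 5 genes was called higher. The fall was 1.72-fold at night and 1.76-fold in the day for PORB, and 1.46-fold and 1.31-fold for CHLM. At night 2 of the 5 genes were called, both lower, where 6.82% of all tested probe sets were called lower and 6.07% higher. In the subjective day the same 2 of 5 were called, both lower, against 21.8% of all tested probe sets called lower and 21.0% higher. Among the leaf markers RCA rose 1.72-fold and SBPASE 1.92-fold after the day pulse. PRK was 1.17-fold higher there without a call (limma adjusted p = 0.139). The root marker PYK10 was 1.48-fold lower after that pulse, also without a call (limma adjusted p = 0.0971). None of these markers was called after the night pulse, and their part in the day values was not tested. In whole-rosette RNA fewer cells expressing a gene and less RNA per cell cannot be told apart.

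PORB had signals of 2256, 2303 and 3009 on the night control arrays and 1298, 1504 and 1576 after the night pulse. Every pulsed array was below every control array. The change was -0.78 ± 0.17 log2, a 1.72-fold fall (limma adjusted p = 0.0086). By subjective day PORB had signals of 1763, 2057 and 2093 in the controls and 939, 1074 and 1380 after the pulse, again without overlap. The fall was 1.76-fold, at -0.81 ± 0.17 log2 (limma adjusted p = 0.002). The highest of the day pulse signals, 1380, came from the array with the GAPDH ratio of 9.29. Before normalization that array had the lowest PORB signal of its group, 781.7 against 974.6 and 1028.5. The night call was lost with arrays centred on their medians (adjusted p = 0.107) and without normalization (adjusted p = 0.278).

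CHLM had signals of 2036, 2107 and 2174 on the night control arrays and 1365, 1385 and 1580 after the night pulse. The groups did not overlap, and the fall of 1.46-fold, or -0.55 ± 0.13 log2, was called (limma adjusted p = 0.0132). CHLM in the subjective day had signals of 1470, 1702 and 1776 in the controls and 1198, 1274 and 1298 after the pulse. The pulsed arrays lay close together and below all 3 controls, with a fall of 1.31-fold, or -0.39 ± 0.13 log2 (limma adjusted p = 0.0289). The night call for CHLM was lost under each of the 3 other scalings (adjusted p = 0.09 to 0.714) and without night pulse replicate 3 (adjusted p = 0.0621), night control replicate 2 (adjusted p = 0.061) or night control replicate 3 (adjusted p = 0.05003). The day call was lost under 9 of 25 alternatives, with both arrays of high GAPDH ratio left out among them (adjusted p = 0.125), and without any 1 of the 3 day pulse arrays (adjusted p = 0.052 to 0.0581) or day control replicate 2 (adjusted p = 0.0842).

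**Figure D1:**
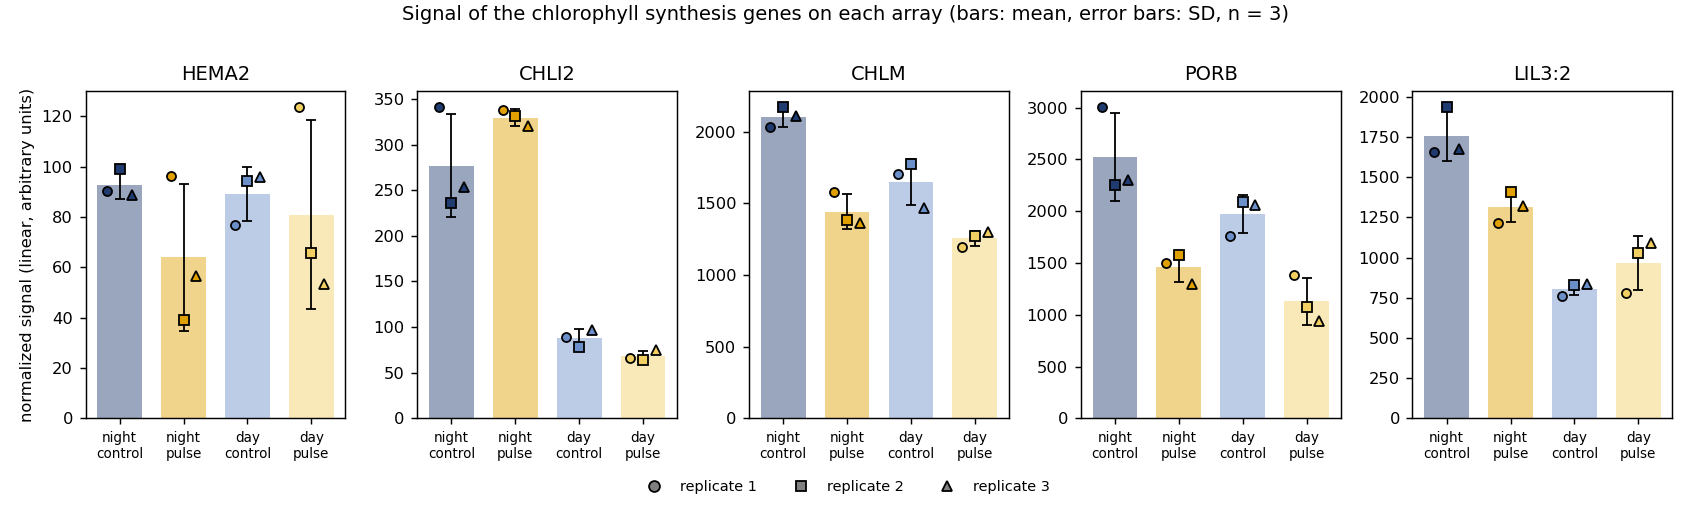
Normalized signal (linear scale, no unit) of each gene on each of the 12 arrays, with bars for the mean of each group of 3 arrays, error bars for the SD and symbols for the replicate number. PORB and CHLM are lower in both pulsed groups than in their controls, while CHLI2 and LIL3:2 are higher at night than in the subjective day, and HEMA2 has overlapping groups.

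HEMA2, at the start of the pathway, was dim and had no call. Its signals were 88.6, 90.5 and 99.2 in the night controls and 38.9, 56.6 and 96.1 after the night pulse, so the pulsed arrays reached into the control range. The estimate was -0.62 ± 0.33 log2 (limma adjusted p = 0.281, 95% interval -1.32 to 0.09). For the day its signals were 76.6, 94.4 and 96.0 in the controls and 53.3, 65.7 and 124 after the pulse. The estimate there was -0.22 ± 0.33 log2 (limma adjusted p = 0.619, 95% interval -0.93 to 0.49). HEMA2 spread far more among pulsed arrays, with an SD of 0.63 log2 at night and 0.62 in the day, than among the controls, with 0.09 and 0.18. In both pulsed groups the highest normalized HEMA2 signal came from the array with the highest GAPDH ratio of its group. Those ratios were 5.16 at night and 9.29 in the day. As deposited, that night array was still the highest, at 91.3, but that day array had 65.3, between 62.5 and 72.8. Without night pulse replicate 1 the night estimate was -0.96 (adjusted p = 0.0891), and without day pulse replicate 1 the day estimate was -0.57 (adjusted p = 0.14). Without night pulse replicate 2 the night estimate was -0.32 (adjusted p = 0.634), and without day pulse replicate 3 the day estimate was 0.03 (adjusted p = 0.959). With array weights, whose fit did not reach its tolerance, HEMA2 was called lower at both times. The estimates were -0.62 at night (limma adjusted p = 0.0492) and -0.63 in the day (limma adjusted p = 0.0132). The part of RNA quality in these values was not tested.

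CHLI2 had no call at either time, and its estimates had opposite signs. At night its signals were 236, 253 and 341 in the controls and 320, 331 and 338 after the pulse, all 3 of which lay within the control range. The estimate was 0.27 ± 0.18 log2 (limma adjusted p = 0.408). By day its signals were 78.1, 89.5 and 96.9 in the controls and 63.9, 66.3 and 74.5 after the pulse, with no overlap. That estimate was -0.36 ± 0.18 log2 (limma adjusted p = 0.121). It was called with median centring (-0.52, adjusted p = 0.0407) and with array weights (-0.44, adjusted p = 0.0114).

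LIL3:2 also had no call at either time. Its signals were 1657, 1676 and 1939 in the night controls and 1218, 1324 and 1409 after the night pulse. Every pulsed array was below every control, but the estimate of -0.41 ± 0.15 log2 missed the threshold (limma adjusted p = 0.106). In the subjective day its signals were 759, 827 and 833 in the controls and 779, 1030 and 1092 after the pulse, so 1 pulsed array, that with the GAPDH ratio of 9.29, lay within the control range. The estimate was 0.25 ± 0.15 log2 (limma adjusted p = 0.217), and -0.23 with arrays centred on their medians. Without day pulse replicate 1 LIL3:2 was called at both times, at -0.41 at night (adjusted p = 0.0428) and 0.39 in the day (adjusted p = 0.0395). Array weights also gave a call at both times (adjusted p = 0.0162 at night and 0.0092 in the day). The night fall was called too with only the compared groups (adjusted p = 0.0441) and without both arrays of high GAPDH ratio (adjusted p = 0.0377). The arrays of the 2 groups did not overlap for 3 of the 5 genes at night, PORB, CHLM and LIL3:2, where 37.1% of all tested probe sets did not. In the subjective day they did not for PORB, CHLM and CHLI2, against 48.0% of all.

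**Figure D2:**
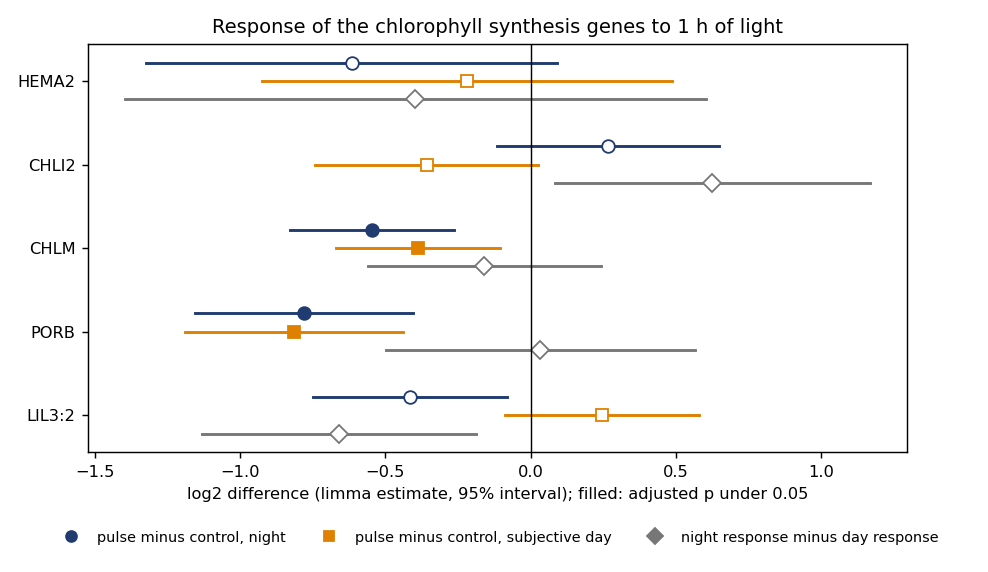
Log2 difference between pulsed and control seedlings for each gene at night (circles) and in the subjective day (squares), and the night response minus the day response (diamonds), with 95% intervals from limma. Filled symbols mark an adjusted p under 0.05, which PORB and CHLM reach at both times, while none of the 5 differences between the times does.

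The next question was whether the pulse acted differently at the 2 times, and the test was that of the difference between the responses, night minus day. None of the 5 genes was called by limma, where 12.7% of all tested probe sets were, and 2 of them had an unadjusted p under 0.05, CHLI2 and LIL3:2. For PORB the difference was 0.03 ± 0.25 log2 with a 95% interval from -0.50 to 0.57. That interval does not show the responses to be alike, and bounds how far apart they were only under the scaling used. Over 24 alternatives the PORB difference ran from -0.08 to 0.75 log2, without a call. For CHLM it was -0.16 ± 0.19 with an interval from -0.56 to 0.24, and for HEMA2 -0.40 ± 0.46 with an interval from -1.40 to 0.60. CHLI2 had a difference of 0.63 ± 0.25 (limma adjusted p = 0.123, interval 0.08 to 1.17). LIL3:2 had -0.66 ± 0.22 (limma adjusted p = 0.0651, interval -1.13 to -0.19). The LIL3:2 difference was called without day pulse replicate 1 (-0.80, adjusted p = 0.013) and without both arrays of high GAPDH ratio (-0.82, adjusted p = 0.0164). It was also called with array weights (-0.73, adjusted p = 0.0016) and with replicate number as a block in the model (-0.66, adjusted p = 0.0423). It was 0.02 with median centring (adjusted p = 0.958), a scaling under which the median of all tested probe sets was 0.31 for this comparison. The CHLI2 difference was called with median centring (0.90, adjusted p = 0.0351) and with array weights (0.73, adjusted p = 0.011).

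The dark controls were then compared between the times, to ask how the genes stood without a pulse. CHLI2 and LIL3:2 were clearly higher at night than in the subjective day, CHLM was slightly higher, and PORB and HEMA2 had no call. Of the 5 genes 3 were called higher and 0 lower, where 25.7% of all tested probe sets were called higher and 22.6% lower. These comparisons use the same control arrays as the responses to light.

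CHLI2 ran from 236 to 341 in the night controls and from 78.1 to 96.9 in the day controls. All 3 night arrays were far above all day arrays, a 3.07-fold difference of 1.62 ± 0.18 log2 (limma adjusted p = 8.89e-06). LIL3:2 ran from 1657 to 1939 in the night controls and from 759 to 833 in the day controls, 2.17-fold higher at night (1.12 ± 0.15 log2, limma adjusted p = 5.98e-05). The calls for CHLI2 and LIL3:2 held under all 25 alternatives, with differences of 1.38 to 2.11 and 0.65 to 1.38 log2. CHLM was 1.28-fold higher at night (0.36 ± 0.13 log2, limma adjusted p = 0.0377), a call kept under 15 of 25 alternatives. It turned to -0.12 with median centring (adjusted p = 0.557), and was lost without any 1 of the 3 night control arrays (adjusted p = 0.0689 to 0.103) and without day control replicate 3 (adjusted p = 0.153). PORB had an estimate of 0.35 ± 0.17 (limma adjusted p = 0.117), which also turned, to -0.15, with median centring, although its arrays did not overlap. HEMA2 had an estimate of 0.06 ± 0.33 (limma adjusted p = 0.888). The arrays of the controls did not overlap for 4 of the 5 genes, all but HEMA2, where 60.4% of all tested probe sets did not.

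The leaf markers moved in the same direction between these controls. All 3 were higher at night, RCA 2.03-fold, SBPASE 2.88-fold and PRK 1.39-fold, with summed signals of 16025 to 18214 in the night controls and 8147 to 9646 in the day controls. After the pulses the sums were 16511 to 19905 at night and 13205 to 14161 in the day. PYK10 was 1.68-fold higher at night, while both root-hair expansins stayed at or under 16.2 in both groups. Their part in the difference of CHLI2 and LIL3:2 was not tested.

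Among pulsed seedlings, CHLI2 and LIL3:2 were again higher at night, and 2 of the 5 genes were called higher against 18.8% of all tested probe sets called higher and 16.1% lower. Their arrays did not overlap for CHLM, CHLI2 and LIL3:2, 3 of the 5, where those of 46.0% of all tested probe sets did not. CHLI2 ran from 320 to 338 after the night pulse and from 63.9 to 74.5 after the day pulse, a 4.73-fold difference (2.24 ± 0.18 log2, limma adjusted p = 1.76e-06). LIL3:2 differed by 1.37-fold, or 0.46 ± 0.15 log2 (limma adjusted p = 0.0352), against 2.17-fold in the dark. The step from 1 value to the other is the difference between the responses, which had no call (limma adjusted p = 0.0651). Between the pulsed groups the call for LIL3:2 was lost under 8 of 25 alternatives. Among them were leaving out night pulse replicate 2 (adjusted p = 0.109) or 3 (adjusted p = 0.0858). The call was also lost without day pulse replicate 1 (adjusted p = 0.104) and without night control replicate 3 (adjusted p = 0.0522). Of the markers, PYK10 was 2.52-fold (limma adjusted p = 0.0016) and SBPASE 1.75-fold (limma adjusted p = 0.0013) higher at night between the pulsed groups. RCA (1.21-fold, limma adjusted p = 0.293) and PRK (1.14-fold, limma adjusted p = 0.237) had no call. The part of the markers in these differences was not tested. The other genes of the 5 had no call. PORB had 0.38 ± 0.17 log2 (limma adjusted p = 0.108) and CHLM 0.20 ± 0.13 (limma adjusted p = 0.266). HEMA2 had -0.33 ± 0.33 (limma adjusted p = 0.461). PORB was called higher at night under 5 alternatives, such as median centring (0.59, adjusted p = 0.0299) and leaving out day pulse replicate 1 (0.53, adjusted p = 0.024).

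Set in order of mean signal, the groups ranked differently from gene to gene. For PORB the order was night control, day control, night pulse and day pulse, and only the ranges of the 2 pulsed groups, which came last, overlapped. CHLM had the same order, but there the day control and night pulse ranges overlapped and the others did not. For CHLI2 the night pulse and night control ranges overlapped at the top, followed by the day control and then the day pulse, each apart from the next. For LIL3:2 the night control came first and the night pulse next, both apart from the rest, and the day pulse and day control ranges overlapped. For HEMA2 the ranges of neighbouring groups all overlapped.

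Other genes of tetrapyrrole synthesis were drawn from a list of 39, of which 10 had a probe set named for them alone and 7 were bright enough to test. In the dark controls 5 of 7 were called higher at night and 0 lower, against 25.7% higher and 22.6% lower among all tested probe sets, with a median difference of 0.77 log2 against 0.02 over all tested probe sets. GSA1, which makes 5-aminolevulinic acid in the step after glutamyl-tRNA reductase, was 3.37-fold higher, at 583 ± 98.4 (SD, n = 3) in the night controls against 172 ± 36.1 in the day controls. HEMB1, which joins 2 molecules of that acid, was 2.03-fold higher, at 965 ± 27.2 against 476 ± 58.3. HEME2, a uroporphyrinogen decarboxylase, was 1.71-fold higher, and SIRB, the ferrochelatase of the side branch to siroheme, 1.67-fold higher, calls that both genes lost with median centring (adjusted p = 0.168 and 0.122). HEME1, a second decarboxylase, had 0.70 ± 0.33 log2 without a call (limma adjusted p = 0.0953). CHLP, the geranylgeranyl reductase that LIL3 proteins bind, had 0.01 ± 0.17 (limma adjusted p = 0.967), but was called lower at night with median centring (-0.56, adjusted p = 0.0095).

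LIL3:1, the relative of LIL3:2, was also higher at night, and was called after the day pulse. It had signals of 833 to 1084 in the night controls and 146 to 247 in the day controls, a 4.84-fold difference (2.28 ± 0.24 log2, limma adjusted p = 5.27e-06). After the day pulse LIL3:1 rose from 206 ± 52.6 to 387 ± 106, or by 0.90 ± 0.24 log2 (limma adjusted p = 0.0074), and it was the 1 gene of the 7 called after that pulse, where 21.0% of all tested probe sets were called higher. That rise lost its call with median centring (adjusted p = 0.0949) and without normalization (adjusted p = 0.122). At night its change was 0.07 ± 0.24 (limma adjusted p = 0.907), and the difference between its responses was -0.83 ± 0.33 without a call (limma adjusted p = 0.122). None of the 7 genes was called after the night pulse by limma, and none had an unadjusted p under 0.05. Whether LIL3:1 and LIL3:2 differ from each other in any response was not tested. After a pulse, 4 of the 7 were called higher at night than in the day and 0 lower, against 18.8% higher and 16.1% lower among all tested probe sets, GSA1 4.06-fold, HEMB1 1.74-fold, HEME2 1.87-fold and LIL3:1 2.73-fold.

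**Figure D3:**
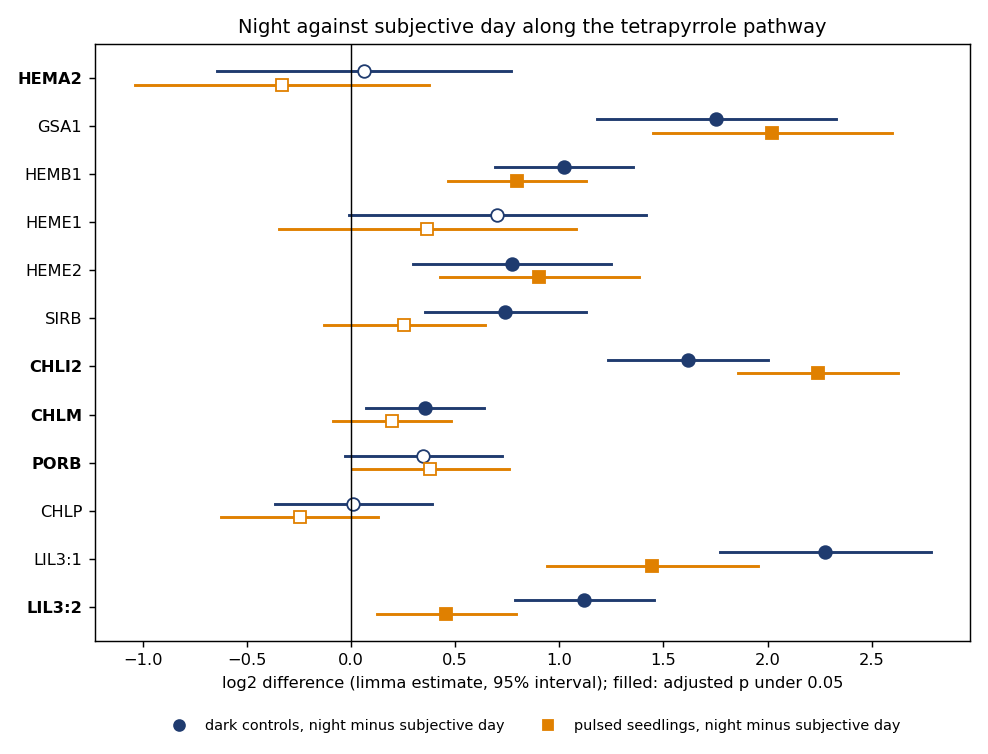
Log2 difference of night minus subjective day in dark controls (circles) and in pulsed seedlings (squares), with 95% intervals from limma, for the 5 genes (bold) and 7 other genes of tetrapyrrole synthesis set roughly in pathway order. Filled symbols mark an adjusted p under 0.05, and CHLI2, GSA1, HEMB1, HEME2, LIL3:1 and LIL3:2 reach it to the right of 0 in both comparisons.

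Chlorophyll breakdown, regulators and antenna proteins had few named probe sets. Of 11 breakdown genes 2 were tested. AT1G44000 (SGRL, of the magnesium dechelatase family) rose 7.76-fold after the day pulse, from 111 ± 14.2 to 877 ± 157, with 0.30 ± 0.18 log2 at night and no call (limma adjusted p = 0.353). NOL, a chlorophyll b reductase, was 2.19-fold lower in the night than in the day controls, a call lost without normalization (adjusted p = 0.0501), and had no call after either pulse. Of 10 regulators HYH alone was tested, a light-signalling factor that rose at both times and reached 383 ± 33.3 with light at night and 379 ± 47.6 with light in the day. Of 20 genes for chlorophyll-binding antenna proteins the 3 LHCB4 genes of the minor antenna were tested, and 2 of them were called after the day pulse. LHCB4.3 rose at both times, by 1.02 ± 0.31 log2 at night (limma adjusted p = 0.0468) and 1.06 ± 0.31 in the day (limma adjusted p = 0.0141). Its day call was lost without both arrays of high GAPDH ratio (adjusted p = 0.0895) and its night call under 10 alternatives, with adjusted p = 0.207 without night pulse replicate 1 and 0.107 to 0.146 without any 1 of the night control arrays. LHCB4.2 rose after the day pulse, by 0.91 ± 0.33 log2 (limma adjusted p = 0.0392), a call lost under 13 of 25 alternatives, among them without any 1 of the 3 day pulse arrays (adjusted p = 0.0651 to 0.0871) and without day control replicate 2, where it was 0.50 (adjusted p = 0.188). At night LHCB4.2 had -0.32 ± 0.33 and no call (limma adjusted p = 0.629). LHCB4.1 had no call after either pulse, with 0.0007 ± 0.13 at night and 0.20 ± 0.13 in the day. Between the pulsed groups LHCB4.3 was 5.98-fold higher at night (limma adjusted p = 4.70e-05), while LHCB4.2 was 3.46-fold lower (limma adjusted p = 0.001) and LHCB4.1 1.33-fold lower (limma adjusted p = 0.0237). The LHCB4.1 call was lost under 5 of 25 alternatives, with adjusted p = 0.0976 without night pulse replicate 2 and 0.0653 without day pulse replicate 2.

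Results were recomputed under 4 ways of scaling the arrays. Median centring moved the median of all tested probe sets to -0.25 log2 for the day response and -0.19 for the night minus day controls. It moved that of the difference between the responses to 0.31. Without normalization the median was 0.54 for the night minus day controls and 0.45 for the pulsed seedlings. The fall of PORB in the day, not corrected for those shifts, ran from -0.81 to -1.26 log2 over the 4 scalings and was called under each. For CHLI2 the difference between the controls ran from 1.38 to 2.11 and for LIL3:2 from 0.65 to 1.38, again called under each. PORB and CHLM kept a fall under each scaling at both times, at night with 2 calls of 4 for PORB and 1 of 4 for CHLM.

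**Figure D4:**
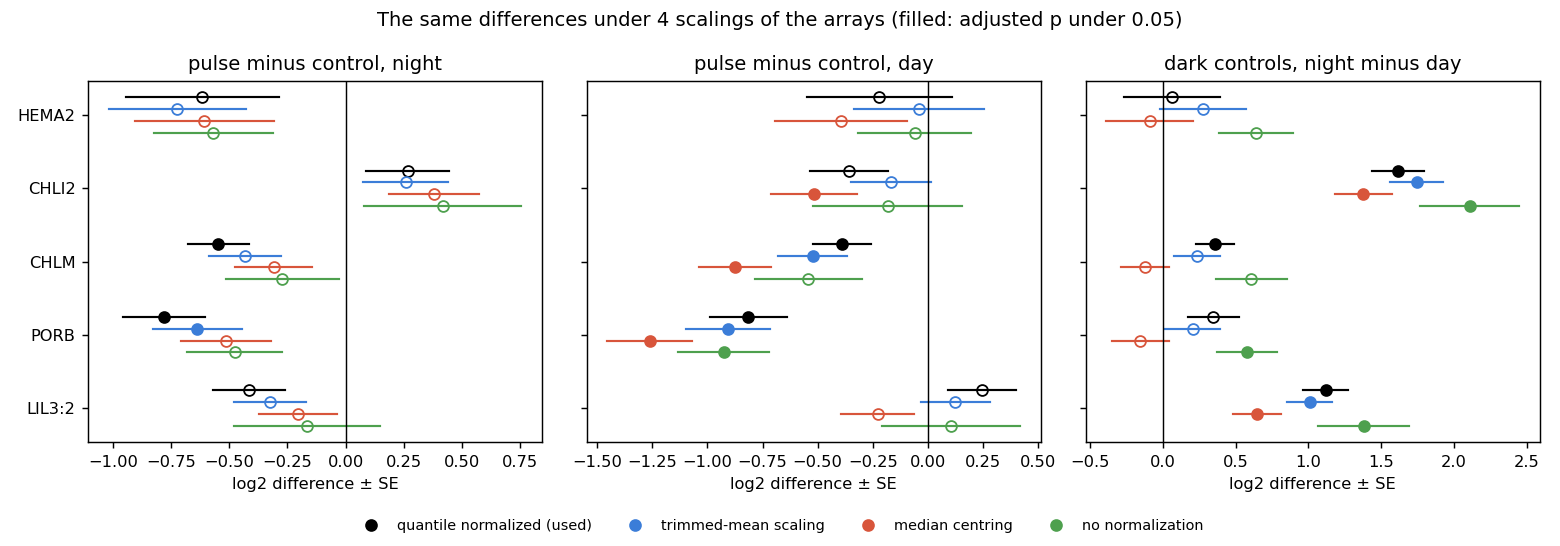
Log2 difference ± SE for each gene under 4 ways of scaling the arrays, for the response at night, the response in the subjective day and the dark controls, with filled circles at an adjusted p under 0.05. The night minus day difference of CHLI2 and LIL3:2 and the fall of PORB in the day are filled under every scaling, while the circles of CHLM and PORB in the right panel cross 0 with median centring.

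As a description of pattern, each gene was compared with 7330 other tested probe sets that name 1 gene, by Pearson's correlation of log2 signal over the 12 arrays, which fall into 4 groups that these genes share. PORB was most like AT4G23820 (r = 0.961), AT2G42320 (r = 0.953) and TET10 (r = 0.949), a tetraspanin. CHLM was most like THE1 (r = 0.959), a receptor kinase of the cell wall, AT3G07010 (r = 0.958) and AT5G14120 (r = 0.922). CHLI2 was most like POLA3 (r = 0.980), CLPP4 (r = 0.978), a subunit of the plastid Clp protease, and AT3G52580 (r = 0.977). HEMA2 had the loosest matches, with AT1G08180 (r = 0.906), PRAF1 (r = 0.893) and AT1G09390 (r = 0.883). LIL3:2 was most like AT1G49380 (r = 0.953), AT5G19760 (r = 0.948) and AT5G48790 (r = 0.945). No member was among the matches of another.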

How the data were processed

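Expression was measured on 12 arrays. The authors deposited a linear intensity for each probe set on each array. MAS5 is the only tool that the submitters' processing notes name, and the sources used here give neither version nor settings. Trimmed means (2% off each end) of 65.3 to 176 show that the deposited arrays had not been scaled together. Of 22746 probe sets besides 64 controls, the annotation used named 1 gene for 13513, several for 503 and none for 8730. Genes were matched by gene ID to RefSeq's TAIR10.1 table.

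Signals plus 2 were taken to log2 and quantile normalized, and probe sets with a mean above the 40th percentile were kept. A single limma model (version 3.58.1, R 4.3.3, lmFit and trended eBayes) held all 4 groups and left 8 residual degrees of freedom; the code was tested on simulated data. Printed signals are normalized values returned from log2, minus the 2. Since no label says that arrays came from separate plants, p-values describe array-to-array spread alone, and precision is limited by how few arrays there are. The members, lists, tests and alternatives were chosen with earlier results of these data known. All 5 members are named whatever their result, as are the tested genes of the listed pathways and markers, and the 3 closest patterns per member. No sequence is shown.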

Additional observations from a re-analysis of the deposited data

Results flagged for a closer look

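AT1G44000 (SGRL) responded differently to the pulse at the 2 times, by the test of the difference itself, with -2.66 ± 0.26 log2 for night minus day (limma adjusted p = 4.03e-05), called under all 24 alternatives at -2.79 to -2.13. Its pulsed levels were 948 ± 97.7 at night and 877 ± 157 in the day, and its controls 773 ± 113 and 111 ± 14.2. HYH also differed between the times, by -2.33 ± 0.29 log2 (limma adjusted p = 0.000277), with a day control mean of 20.8, under the lowest mean signal kept of 21.8. With dim signals raised to that level the HYH difference was -2.15.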

How the results depend on the processing

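Up to 25 alternatives were tried for each of the 25 member results (5 genes, 5 comparisons), and 543 of 620 values kept their direction and their side of the threshold. That count includes results without a call that stayed without one. It also includes alternatives that cannot move an estimate, such as leaving out the filter or the trend. It is therefore no measure of how well the calls held. At night, where 2 members were called, 0 were called without normalization or with median centring, 1 with trimmed-mean scaling, 4 with array weights, whose fit did not reach its tolerance, and 1 to 3 when 1 array was left out. In the day, also with 2, there was 1 without normalization, without the filter, without the trend, with only the compared groups and without both arrays of high GAPDH ratio, 3 with median centring, 5 with array weights, and 1 to 2 with an array left out. For the difference between the responses, with 0, there was 1 with median centring, 1 without the high-GAPDH arrays, 2 with array weights, and 0 to 1 with an array left out. For pulsed seedlings, with 2, there were 4 without normalization, 1 without the filter, without the trend or with only the compared groups, and 1 to 2 with an array left out. The count of 3 for the dark controls was 2 or 3 throughout. Of 18 pairs of same-numbered arrays, 8 had a correlation of deviations over 0.1, with r from -0.11 to 0.45. Without differently numbered pairs to set beside them, these values cannot decide if arrays with the same number belong together. With the replicate block 1 member was called for the difference, LIL3:2 (adjusted p = 0.0423), with no other member call changed. That block raised the calls over all tested probe sets in each comparison, at night from 1760 to 1964 and for the difference from 1728 to 2019. Over all tested probe sets, array weights moved the night calls from 1760 to 3513 and no normalization to 669, and those of the difference from 1728 to 5308 and 439.

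The signs that turned were these. For CHLM, the dark-control difference was -0.12 with median centring, and the difference between responses was 0.27 without normalization, 0.57 with median centring and 0.090 with trimmed-mean scaling, where the medians of all tested probe sets for that comparison were 0.01, 0.31 and -0.16. For PORB, the dark-control difference was -0.15 with median centring, and the difference between responses ran from -0.084 to 0.19 with an array left out. For LIL3:2, the day response was -0.23 and the difference 0.023 with median centring. For HEMA2, the day response ran from -0.57 to 0.027 with an array left out. The HEMA2 dark-control difference was -0.090 with median centring, -0.053 with array weights and -0.038 to 0.12 with an array left out, and its difference between responses was 0.0065 with array weights. Among pulsed seedlings HEMA2 was at 0.13 without normalization, 0.011 without the high-GAPDH arrays and -0.67 to 0.013 with an array left out. For CHLP, the dark-control difference was -0.56 with median centring, -0.20 with trimmed-mean scaling, -0.18 with array weights and -0.12 to 0.11 with an array left out. The causes were not tested. Since each member has 1 probe set, averaging probe sets of a gene gave no further value, and the difference has none with only the compared groups. Background was not measured here; HEMA2 and, in the day, CHLI2 were the dimmest members, with signals from 38.9 to 124 and from 63.9 to 96.9.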
